A study of Mus musculus with 8 samples.

Results

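The 10 genes described here, Fbn1, Fbn2, Mfap5, Mfap4, Eln, Fbln5, Efemp1, Fbln1, Fbln2 and Ltbp4, encode the proteins of microfibrils and elastic fibers. They were taken by symbol from the 32285 gene IDs counted in each library, and all 10 were found. The set was chosen with 1 readout in view, a lower level of Fbn1 in Dpp4+ progenitors of twice-a-night (TAN) fed mice, so every value from that contrast is given as a description with no test. The libraries hold single cells of the stromal vascular fraction, the cells left after collagenase digestion of fat and removal of adipocytes and red blood cells, from the fourth inguinal white adipose depot of C57BL/6 mice (C57BL/6J in the study's text) that the labels give as 8 weeks old. Mice in 4 libraries (Ad-Lib 1, 3, 5 and 7) had food at all times, and mice in 4 libraries (TAN 2, 4, 6 and 8) had 2 meals a night. The labels do not state how many mice a library holds, while the study's text treats each library as an animal. The p-values measure the spread between these libraries, which may be technical where that does not hold. The study's text describes older male mice kept on TAN feeding for months, so the age at collection is uncertain.

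Elastic fibers have a core of elastin, the product of Eln, laid down on a scaffold of microfibrils built from fibrillin-1 and fibrillin-2 (Fbn1, Fbn2). MAGP-2 (Mfap5) and MFAP4 (Mfap4) bind microfibrils, fibulin-5 (Fbln5) and LTBP4 (Ltbp4) help to place elastin on them, and lysyl oxidases crosslink it. Fibrillins also hold latent TGF-beta through the latent TGF-beta binding proteins, and the C-terminal propeptide of fibrillin-1 is released as asprosin, a fasting hormone made in white fat.

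Cells were placed in classes by fixed marker genes, and 5 classes were used: 3 classes of adipocyte progenitor cell (APC), endothelial cells and mural cells (pericytes and smooth muscle). Dpp4+ APC-like cells were the Pi16 and Dpp4 expressing progenitors (4229 cells), Icam1+ APC-like cells the Icam1 and Col15a1 expressing ones (4127 cells), and F3+ APC-like cells the Gdf10 and F3 expressing ones (1451 cells). There were 6463 endothelial-like and 1271 mural-like cells. A further cluster of 3521 shallow cells (median 1259 UMIs) scored highest for endothelial markers, with 9 passed, and next for adipocyte markers. It was left unnamed, so the levels and shares of endothelial-like cells leave it out. The summed level of the 10 Dpp4+ APC markers was 5303 ± 204 CPM (UMIs scaled to 1000000 per library and class) in the Dpp4+ class of Ad-Lib libraries and 114 ± 7.73 CPM in the Icam1+ class (SD, n = 4), and no marker of the Dpp4+ list was at 0 in the Dpp4+ class. The 8 F3+ markers set the F3+ class less apart, at 2019 to 2942 CPM in its Ad-Lib libraries against 1735 to 2173 CPM in the Icam1+ class, which overlap, while the 8 Icam1+ markers were at 1959 to 2376 CPM in the F3+ class and 6172 to 7082 CPM in the Icam1+ class. In total, 36370 of 44427 barcodes were kept, library totals ran from 25320800 to 37140950 UMIs, and pairs of libraries shared 2 to 14 kept barcodes. Library TAN 6 stood apart in depth, with a median of 2154.5 UMIs in its F3+ APC-like cells against 7270.5 to 10842.5 in the other libraries.

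Promoter sequences were found in the RefSeq table for 6 of the 10 genes, at 10 start sites. Below are the 250 bases before the start of Efemp1 and of the first start of Fbln5, shown because the first was held mostly by Dpp4+ progenitors and the second was spread over progenitors and vessels in the levels that follow. Both are read 5′ to 3′ on the gene's strand in GRCm38.p6, and capitals mark GGGCGG, the core of an Sp1 site, on either strand.
Efemp1, chr11:28852955-28853204, plus strand: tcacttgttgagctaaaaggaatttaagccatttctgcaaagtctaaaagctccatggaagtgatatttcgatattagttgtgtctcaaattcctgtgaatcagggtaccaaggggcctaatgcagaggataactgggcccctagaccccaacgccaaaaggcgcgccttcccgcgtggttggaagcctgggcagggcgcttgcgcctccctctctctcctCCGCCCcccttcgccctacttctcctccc
Fbln5, chr12:101819120-101819369, minus strand: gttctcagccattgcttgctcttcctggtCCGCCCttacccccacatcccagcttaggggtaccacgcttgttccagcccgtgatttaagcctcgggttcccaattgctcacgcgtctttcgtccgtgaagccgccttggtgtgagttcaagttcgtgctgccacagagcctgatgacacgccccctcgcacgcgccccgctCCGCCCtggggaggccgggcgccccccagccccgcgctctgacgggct
All motifs were searched on both strands. GGGCGG matched once in the Efemp1 window and 2 times in the Fbln5 window, and 32.7% of 32817 promoter windows of this length held it. The E-box CACGTG was held by 6.0% of windows and by neither of these, CAGAC, a Smad-binding element, by 42.2% and by neither, and TATAAA by 12.4% and by neither. Among the other windows, GGGCGG matched 3, 5 and 7 times at the 3 starts of Ltbp4, of which the last 2 overlap, and once each for Fbn1, Fbln2 and the second start of Fbln1. CACGTG matched once and CAGAC 2 times at each of the overlapping starts of Fbln1, CAGAC also matched 2 times at the second start of Fbln5, and TATAAA matched at none of the 10 start sites.

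Levels are given as CPM, the UMIs of a gene scaled to 1000000 UMIs summed over the cells of a class in a library. The 3′ assay counts 1 tag per transcript, so levels of different genes on this scale were not divided by length. The cells clustered were also the cells measured, so levels between classes are a description.

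Among the microfibril genes, Fbn1 (chromosome 2, 125300594 to 125507993, minus strand, GRCm38) was a progenitor transcript. Its mean level over the 8 libraries was 518 CPM in Dpp4+, 394 CPM in F3+ and 254 CPM in Icam1+ APC-like cells, 41.5 CPM in mural-like and 12.5 CPM in endothelial-like cells. The ranges of the 8 libraries overlapped between neighboring APC classes and did not overlap between the Icam1+, mural-like and endothelial-like classes. Dpp4+ cells held 51.1% of the 37189 Fbn1 UMIs in all cells kept, Icam1+ cells 28.7% and F3+ cells 14.5%. In T-like and B-like cells, which should lack the transcript, the level was 0.731 CPM and 1.495 CPM. Macrophage-like cells had 8.90 CPM on 246 UMIs and adipocyte-like cells 10.5 CPM on 8 UMIs, near the level of endothelial-like cells. Fbn2 (18, 58008623 to 58210487, minus), the fibrillin prominent in embryonic tissue, gave 40 UMIs in all, of which 72.5% lay in F3+ and 15% in Icam1+ cells.

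Mfap5 (6, 122505845 to 122529290, plus) was the most abundant member in the Dpp4+ class, with 1452 CPM, 43.0% of the summed level of the 10 genes there. It reached 684 CPM in F3+ and 631 CPM in Icam1+ cells, whose library ranges overlapped, and 4.15 and 4.33 CPM in endothelial-like and mural-like cells, near the 4.15 and 6.19 CPM of T-like and B-like cells. Mfap4 (11, 61485431 to 61488900, plus, overlapping Mapk7 on the other strand) was instead an F3+ transcript. Its level was 69.1 CPM in F3+ cells against 2.75 CPM in Icam1+ and 0.86 CPM in Dpp4+ cells, and F3+ cells held 84.4% of its 1202 UMIs.

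**Figure D1:**
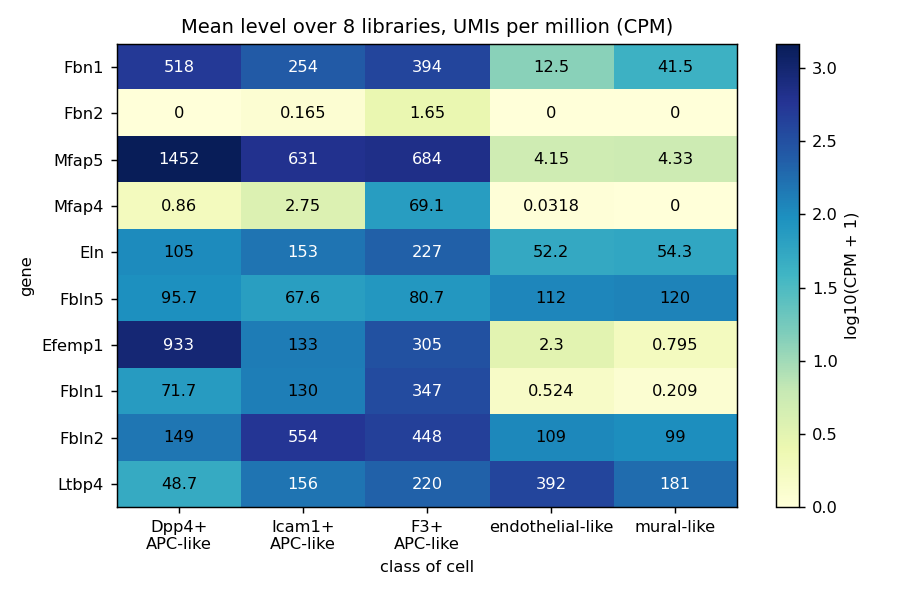
Mean level of each of the 10 genes (vertical axis) in each class of cell (horizontal axis) over the 8 libraries, printed in CPM and colored on a log10(CPM + 1) scale. Mfap5, Efemp1 and Fbn1 are darkest in the Dpp4+ APC-like column and Ltbp4 in the endothelial-like column, while Mfap4 stands out only in F3+ APC-like cells.

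Elastin and the fibulins were divided between progenitors and vessels in other ways. Eln (5, 134702593 to 134747323, minus) had 227 CPM in F3+, 153 CPM in Icam1+ and 105 CPM in Dpp4+ cells and 52.2 and 54.3 CPM in endothelial-like and mural-like cells, and the library ranges overlapped between F3+ and both other APC classes, between Dpp4+ and endothelial-like cells and between endothelial-like and mural-like cells. Efemp1 (11, 28853204 to 28926743, plus), which encodes fibulin-3, stood at 933 CPM in Dpp4+ cells, 305 CPM in F3+ and 133 CPM in Icam1+ cells, with no overlap of library ranges between these classes, and Dpp4+ cells held 74.4% of its 42656 UMIs. Fbln1 (15, 85205949 to 85286535, plus), the gene of fibulin-1, was instead lowest in the Dpp4+ class among the progenitors, with 347 CPM in F3+, 130 CPM in Icam1+ and 71.7 CPM in Dpp4+ cells, again with no overlap. Over the 8 libraries Efemp1 and Fbln1 averaged 2.30 and 0.524 CPM in endothelial-like cells and 0.795 and 0.209 CPM in mural-like cells.

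Fbln2 (6, 91212455 to 91272540, plus), which encodes fibulin-2, was highest in Icam1+ (554 CPM) and F3+ cells (448 CPM), whose ranges overlapped, with 149 CPM in Dpp4+, 109 CPM in endothelial-like and 99.0 CPM in mural-like cells, whose ranges also overlapped. Fbln5 (12, 101746565 to 101819055, minus) was spread most evenly, from 67.6 CPM in Icam1+ to 120 CPM in mural-like cells, and neighboring classes in the order overlapped. Endothelial-like cells held 27.0% of its 12682 UMIs and Dpp4+ cells 26.1%. Ltbp4 (7, 27305136 to 27337692, minus) was highest in endothelial cells. It had 392 CPM in endothelial-like cells, 220 CPM in F3+, 181 CPM in mural-like, 156 CPM in Icam1+ and 48.7 CPM in Dpp4+ cells, and 42.5% of its 27954 UMIs lay in endothelial-like cells. Neighboring classes in that order overlapped by library, except that Dpp4+ cells lay below all. Schwann-like cells also carried Ltbp4 at 238 CPM and Efemp1 at 210 CPM, on 148 and 125 UMIs.

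**Figure D2:**
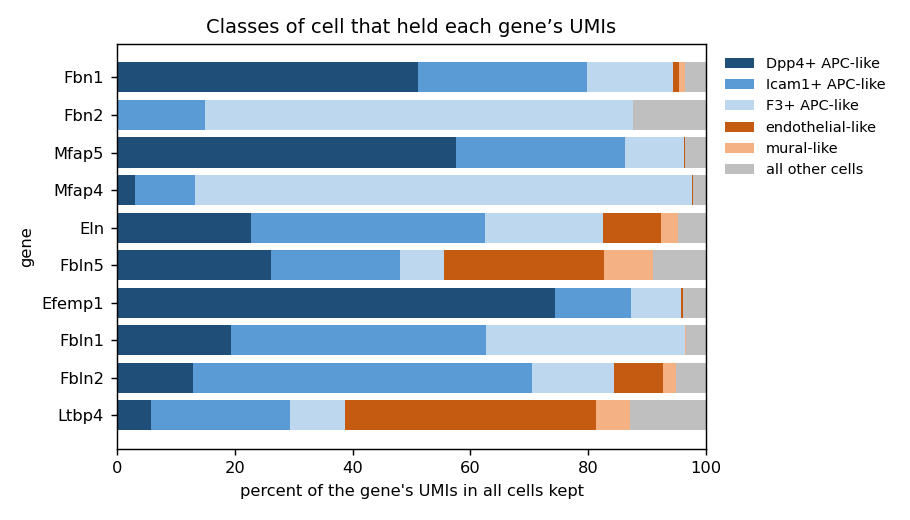
Percent of each gene's UMIs in all cells kept (horizontal axis) that lay in each class of cell (colors), for the 10 genes (vertical axis). APC-like classes (blue) hold nearly all UMIs of Fbn1, Mfap5, Mfap4, Efemp1 and Fbln1, and endothelial-like cells (dark orange) hold 42.5% of Ltbp4 and 27.0% of Fbln5.

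The contrast that chose the set was that of Fbn1 in Dpp4+ APC-like cells. The 4 Ad-Lib libraries had 623.5, 656.4, 605.3 and 686.8 CPM and the 4 TAN libraries 356.0, 398.1, 390.6 and 429.7 CPM. Every TAN library was below every Ad-Lib library. The means were 643 ± 36.1 and 393.6 ± 30.3 CPM (SD, n = 4), a log2 change of −0.71 ± 0.08 (SE), TAN minus Ad-Lib. In this class 66 of 10722 genes tested (0.616%) passed an edgeR adjusted p under 0.05 at 1.5-fold or more, 47 of them lower in TAN (0.438%), and in 2.31% of genes every TAN library lay below every Ad-Lib library. Because Fbn1 was picked from this contrast, nothing is read from its place among them. The mean of the library medians was 4 Fbn1 UMIs per cell in Ad-Lib and 2 in TAN.

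Dpp4+ cells of TAN libraries were shallower, with a median of 8117 ± 1085 UMIs per cell against 9481 ± 566 in Ad-Lib, and a mitochondrial share of 1.98 ± 0.274% against 1.59 ± 0.247% (SD, n = 4). The share of cells with a Fbn1 UMI was 88.0% in Ad-Lib and 76.8% in TAN. After thinning each cell to 2000 UMIs, it was 64.6 ± 0.789% and 50.8 ± 1.63%. The thinning dropped 273 cells of 2498 from Ad-Lib libraries and 310 cells of 1731 from TAN libraries as too shallow. T-like cells, with median depths of 5047 and 5575 UMIs in the 2 groups, had thinned shares of 0.234% and 0.0751%. The summed level of 7 general APC markers ran from 18406 to 23765 CPM in Ad-Lib against from 16756 to 20007 CPM in TAN, with 1 of the 7 genes lower in every TAN library. Its part in the Fbn1 difference was not tested.

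The Dpp4+ class was made of 2 clusters, examined apart after the data were seen. The larger (3182 cells), led by the inflammatory genes Il6, Ptgs2 and Cxcl10, had Fbn1 at 621 ± 20.5 CPM in Ad-Lib against 388 ± 29.6 CPM in TAN. The smaller (1047 cells, median 2978 UMIs), led by the adipocyte genes Car3 and Fabp4, had 844 ± 253 and 425 ± 39.6 CPM. The log2 changes were −0.69 and −0.95. In the whole class the change ran from −0.76 to −0.67 when 1 library was left out at a time.

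The other members had smaller log2 changes in the same cells. Efemp1 had 794.5, 818.2, 1013 and 876.7 CPM in Ad-Lib against 1033, 947.5, 914.6 and 1067 CPM in TAN, and the groups overlapped. Mfap5 had 1657, 1600, 1421 and 1440 CPM against 1327, 1387, 1342 and 1444 CPM, overlapping through TAN 8. Fbln1 was low but separated in the other direction, with 59.8 to 66.1 CPM in Ad-Lib against 68.3 to 89.9 CPM in TAN, a log2 change of 0.30 ± 0.10 (SE). Genes with every TAN library above every Ad-Lib library made up 2.9% of those tested. Ltbp4 had 31.8, 37.7, 59.2 and 36.7 CPM against 57.4, 56.1, 46.0 and 64.5 CPM, a log2 change of 0.48 ± 0.15 that was 0.66 without library Ad-Lib 5. The log2 changes of Mfap5 and Efemp1 were −0.16 ± 0.09 and 0.18 ± 0.08, and those of Eln, Fbln5 and Fbln2 lay between 0.01 and 0.03. Mfap4, with 36 UMIs, and Fbn2, with none, were too low to be fitted. The summed level of the 10 genes was 3489 to 3524 CPM in Ad-Lib against 3087 to 3470 CPM in TAN.

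**Figure D3:**
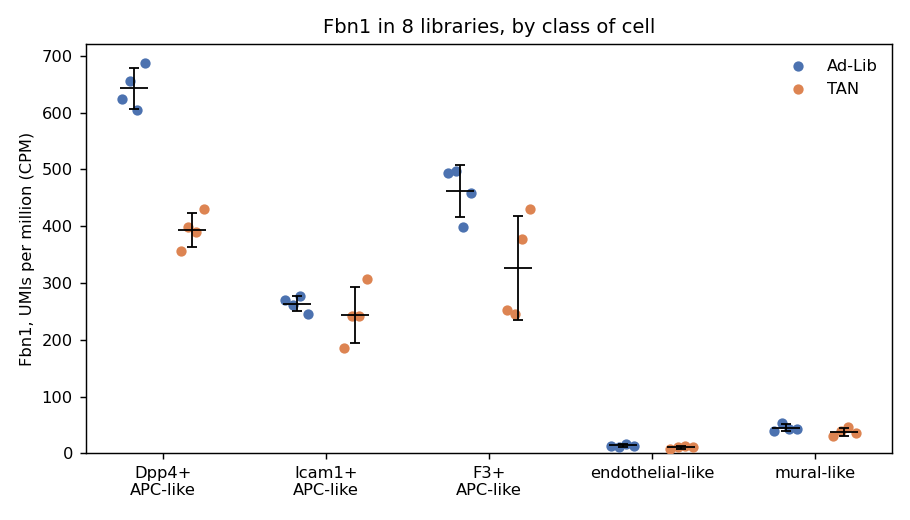
Fbn1 level in CPM (vertical axis) in each library (points; Ad-Lib blue, TAN orange) by class of cell (horizontal axis), with the mean (wide line) and SD (bars) of 4 libraries. The groups separate in Dpp4+ APC-like cells, at 605.3 to 686.8 against 356.0 to 429.7 CPM, and overlap in the other 4 classes.

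The remaining 4 classes were not part of the readout that chose the set, so the members were tested there with edgeR's quasi-likelihood test over all genes. These classes come from the same 8 libraries, and the members were chosen with earlier results of these data known. In Icam1+ APC-like cells, the Col15a1 expressing preadipocytes, 0 of the 9 members tested were called, in a class where 195 of 11108 genes (1.76%) were. At an unadjusted p under 0.05, 1 of the 9 passed (Fbln5), and DESeq2 called 0. Fbn1 had 269.9, 261.7, 276.5 and 245.4 CPM in Ad-Lib against 186.4, 242.5, 241.2 and 307.0 CPM in TAN. The TAN libraries lay on both sides of the Ad-Lib ones, and the log2 change of −0.15 ± 0.11 (SE, n = 4) did not pass (edgeR adjusted p = 0.554). Fbln5 had the change with the smallest adjusted p, from 52.1 to 71.4 CPM in Ad-Lib against from 64.8 to 86.2 CPM in TAN, a log2 change of 0.35 ± 0.11 (edgeR adjusted p = 0.101). The log2 changes of the other 7 members, from −0.44 ± 0.49 for Mfap4 to 0.23 ± 0.13 for Fbln1, had edgeR adjusted p from 0.431 to 0.968.

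In F3+ APC-like cells, again 0 of 9 members were called, with 42 of 8734 genes (0.481%) called in the class. At an unadjusted p under 0.05, 2 passed (Fbn1 and Ltbp4), and DESeq2 called 0. Fbn1 had 493.1, 497.5, 398.7 and 457.7 CPM in Ad-Lib against 251.8, 246.1, 377.3 and 430.3 CPM in TAN. TAN 2, TAN 4 and TAN 6 were below all Ad-Lib libraries and TAN 8 was inside their range. The means were 461.8 ± 45.6 and 326.4 ± 92.0 CPM (SD, n = 4), and the log2 change was −0.55 ± 0.15 (SE; edgeR adjusted p = 0.147). Over 15 alternatives the change ran from −0.78 to −0.45 with adjusted p from 0.000927 to 0.452. Mfap4 had 47.8, 105.0, 67.3 and 113.6 CPM against 21.3, 41.3, 24.0 and 132.5 CPM. Its lowest 3 values were TAN libraries, but the highest of all was TAN 8, and the log2 change was −0.56 ± 0.38 (edgeR adjusted p = 0.674). Without TAN 8 it was −1.62 (edgeR adjusted p = 0.0369, against 0.00585 to 0.902 over the alternatives). In these cells the summed F3+ markers were 2019 to 2942 CPM in Ad-Lib against 2938 to 3516 CPM in TAN, barely overlapping, the summed mural markers 59.8 to 95.7 CPM against 96.1 to 114.5 CPM, higher in every TAN library, and the summed APC markers 31396 to 49431 CPM against 29429 to 34143 CPM. The part of these in the F3+ values was not tested.

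Elastin in F3+ cells varied widely within each group, from 166.4 to 400.6 CPM in Ad-Lib against from 83.4 to 312.8 CPM in TAN, and its log2 change of −0.44 ± 0.31 did not pass (edgeR adjusted p = 0.687). Ltbp4 had 116.5 to 223.4 CPM in Ad-Lib against 171.0 to 380.9 CPM in TAN, a log2 change of 0.48 ± 0.20 (edgeR adjusted p = 0.419). The remaining 5 members had log2 changes between −0.22 ± 0.14 for Mfap5 and 0.22 ± 0.14 for Fbln5, with edgeR adjusted p from 0.622 to 1.

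The change in Icam1+ cells was then set against the change in F3+ cells in 1 model. By edgeR none of the 9 members passed (0 of 9, with 34 of 10837 genes, 0.314%, past an adjusted p under 0.05), although 3 (Fbn1, Ltbp4 and Mfap5) passed unadjusted, and DESeq2 called 0. The difference was 0.40 ± 0.12 on the log2 scale for Fbn1 (edgeR adjusted p = 0.197) and 0.34 ± 0.09 for Mfap5 (edgeR adjusted p = 0.148). For Ltbp4 it was −0.48 ± 0.16 (edgeR adjusted p = 0.345), and without library Ad-Lib 7 it was −0.62 (edgeR adjusted p = 0.0483).

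**Figure D4:**
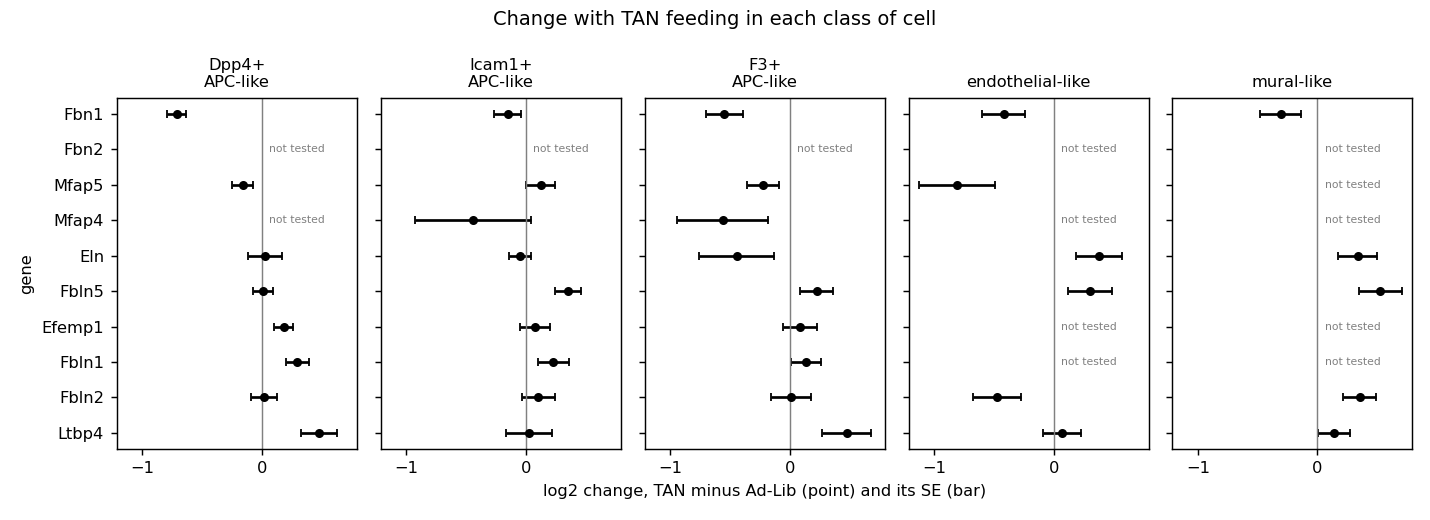
Log2 change, TAN minus Ad-Lib (horizontal axis, point with SE), for the 10 genes (vertical axis) in 5 classes of cell (panels), with genes too low to be fitted marked as not tested. Fbn1 lies left of 0 in every panel, at −0.71 in Dpp4+ and −0.15 in Icam1+ APC-like cells. Fbln5 lies right of 0 by 0.22 to 0.53 in every panel but that of the Dpp4+ class. Its change was −0.06 to −0.10 within endothelial-like clusters. In mural-like cells it was 0.05 without the sub-cluster led by endothelial genes, inside which the mean level was higher in TAN.

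In endothelial-like cells, 6 of the 10 genes could be tested and 0 were called, with 246 of 10746 genes (2.29%) called in the class. An unadjusted p under 0.05 was reached by 3 (Fbln2, Fbn1 and Mfap5), and DESeq2 called 0. Ltbp4 had 298.6 to 492.7 CPM in Ad-Lib against 283.2 to 515.4 CPM in TAN, a log2 change of 0.07 ± 0.16 (edgeR adjusted p = 0.860). Fbln2 had 112.9, 77.1, 166.1 and 153.2 CPM against 65.9, 76.8, 88.2 and 133.6 CPM, a log2 change of −0.47 ± 0.20 (edgeR adjusted p = 0.213). TAN 6 and TAN 8 lay inside the Ad-Lib range, and without TAN 8 the change was −0.69 (edgeR adjusted p = 0.0445). Fbln5 had 75.3, 72.7, 152.1 and 103.2 CPM against 101.8, 109.9, 167.0 and 112.5 CPM, a log2 change of 0.31 ± 0.18 (edgeR adjusted p = 0.407). The make-up of the class, whose clusters are described next, also differed between the groups, and its part in this value was not tested. The cluster highest in Fbln5 made up 28.2 to 32.8% of the class in Ad-Lib libraries against 33.9 to 44.4% in TAN and the cluster lowest in it 63.0 to 68.1% against 51.5 to 60.9%. Within the 3 clusters the log2 change of Fbln5 was −0.06, −0.08 and −0.10. The other 3, Eln, Fbn1 and Mfap5, had log2 changes of 0.38, −0.42 and −0.81 with edgeR adjusted p from 0.171 to 0.305. For Eln the sign differed inside the class, at −0.50, 0.14 and 0.76 in the Gja5, Aqp1 and Plvap clusters. In these cells the summed APC markers were at 81.8 to 198.7 CPM in Ad-Lib against 58.1 to 103.2 CPM in TAN, lower in the same group as Fbn1, Mfap5 and Fbln2, and their part in those values was not tested. The summed Icam1+ APC markers were at 1904 to 2185 CPM against 1473 to 1971 CPM and overlapped, while the summed Dpp4+ APC markers lay the other way, at 439.7 to 523.7 CPM against 558.7 to 640.9 CPM. These lists were made to divide progenitors from one another, and whether their UMIs here came from progenitors was not tested. The median mitochondrial share of the class was 1.63 to 2.04% in Ad-Lib against 2.42 to 3.21% in TAN, higher in every TAN library, and its part in these values was not tested either.

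The endothelial-like class had 3 clusters, which were examined apart after the data were seen. One (2292 cells) was led by Gja5, Hey1 and Col8a1, genes known from arteries, one (3899 cells) by Aqp1, Plau and Adm, and one (272 cells) by Plvap, Selp and Ackr1, known from veins. Fbln5 had a mean over the 8 libraries of 310 CPM in the Gja5 and Hey1 cluster, 76.4 CPM in the Plvap and Selp cluster and 9.54 CPM in the Aqp1 cluster. Ltbp4 was present in all of them, at 560, 427 and 296 CPM in the same order. Eln was highest in the Plvap and Selp cluster, at 243 CPM against 57.8 and 28.5 CPM. Fbln2 had 205 and 216 CPM in the Gja5 and Hey1 and the Plvap and Selp clusters and 48.2 CPM in the Aqp1 cluster.

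Within the Aqp1 cluster, Fbln2 fell in TAN. The 4 Ad-Lib libraries had 74.3, 51.3, 70.9 and 72.3 CPM and the 4 TAN libraries 23.8, 26.6, 18.7 and 47.4 CPM. Every TAN library was below every Ad-Lib library, as in 5.21% of the genes tested there, and the means of 67.2 ± 10.7 and 29.1 ± 12.6 CPM (SD, n = 4) put the log2 change at −1.23 ± 0.18 (SE; edgeR adjusted p = 0.000521). In that cluster 306 of 9845 genes (3.11%) were called, 173 of them lower in TAN (1.76%). The change ran from −1.47 to −1.08 over 11 alternatives and was called in each, with adjusted p up to 0.00653. The summed APC markers of the cluster were 161 ± 54.3 CPM in Ad-Lib against 76.8 ± 26.0 CPM in TAN, and its summed endothelial markers 10161 to 11645 CPM against 8792 to 9756 CPM, lower in every TAN library. The part of either, and of the mitochondrial share of the class, in the Fbln2 change was not tested.

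Fbn1 was at far lower levels in the Aqp1 cluster. It had 11.1, 6.22, 5.54 and 6.33 CPM in Ad-Lib against 3.71, 3.21, 0 and 1.98 CPM in TAN, on 14 to 37 and 0 to 12 UMIs, a log2 change of −1.51 ± 0.43. It passed the filter on low counts only through the Ad-Lib libraries, so these values are given with no call. The other 4 members tested there, Ltbp4, Fbln5, Eln and Mfap5, did not pass. In the Gja5 and Hey1 cluster 0 of 5 members were called (133 of 8326 genes, 1.6%), with 2 (Fbln2 and Fbn1) at an unadjusted p under 0.05 and 0 by DESeq2, and the log2 change of Fbln2 was −0.66 ± 0.23 (edgeR adjusted p = 0.164). Fbln2 was called there without Ad-Lib 3 (−0.85, edgeR adjusted p = 0.0475), and Fbln2 and Fbn1 without the filter on low counts (edgeR adjusted p = 5.0e-06 and 0.0398). In the Plvap and Selp cluster 0 of 4 were called (3 of 3386 genes, 0.0886%), with 1 (Eln) at an unadjusted p under 0.05 and no other tool run. Eln had 120.8, 143.9, 235.9 and 236.2 CPM in Ad-Lib against 316.0, 381.6, 237.6 and 274.0 CPM in TAN, a log2 change of 0.76 ± 0.22 (edgeR adjusted p = 0.340) on 20 to 108 UMIs a library. Every TAN library was above every Ad-Lib library, TAN 6 only just above Ad-Lib 7, as in 2.39% of the genes tested in that cluster. Whether the change of Fbln2 differed between the clusters was not tested.

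**Figure D5:**
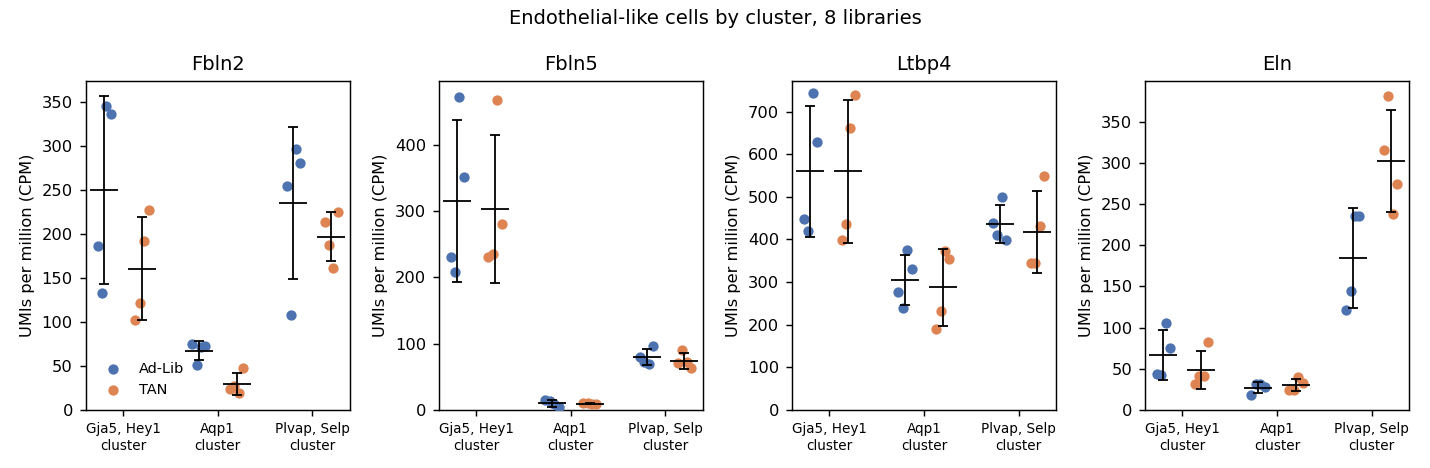
Levels in CPM (vertical axes) of Fbln2, Fbln5, Ltbp4 and Eln (panels) in each library (points; Ad-Lib blue, TAN orange) by cluster of endothelial-like cells (horizontal axis), with mean and SD of 4 libraries. The groups separate for Fbln2 in the Aqp1 cluster, at 51.3 to 74.3 CPM in Ad-Lib against 18.7 to 47.4 CPM in TAN, and for Eln in the Plvap and Selp cluster, at 120.8 to 236.2 against 237.6 to 381.6 CPM, while Fbln5 stands high in the Gja5 and Hey1 cluster of both groups.

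In mural-like cells, 5 of the 10 genes could be tested and 0 were called, with 69 of 8895 genes (0.776%) called in the class. An unadjusted p under 0.05 was reached by 2 (Fbln2 and Fbln5), and DESeq2 called 0. Fbln5 had 115.1, 89.0, 66.1 and 114.4 CPM in Ad-Lib against 184.6, 111.8, 171.0 and 106.7 CPM in TAN. The groups overlapped, and the log2 change was 0.53 ± 0.18 (edgeR adjusted p = 0.201). The log2 changes of Ltbp4, Fbln2, Eln and Fbn1 were 0.14, 0.35, 0.34 and −0.31, with edgeR adjusted p from 0.318 to 0.816.

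The mural-like class was not uniform in these genes. A sub-cluster of 335 cells led by the endothelial genes Aqp1, Gpihbp1 and Aplnr had Ltbp4 at 305 CPM, Fbln5 at 176 CPM and Fbln2 at 131 CPM, and its summed endothelial markers were 5894 CPM in Ad-Lib, against 547 CPM in the largest sub-cluster. A sub-cluster of 195 cells led by Pln and Myocd, genes of smooth muscle, had Ltbp4 at 225 CPM, Fbln5 at 210 CPM, Fbln2 at 197 CPM and Eln at 115 CPM. It was not free of endothelial transcripts. Its summed endothelial markers averaged 2053 CPM over the Ad-Lib libraries, and 6 leading genes of the Gja5 and Hey1 cluster summed to 461 CPM. The TAN averages were 2233 and 672 CPM. In the sub-cluster of 335 cells those 6 genes summed to 324 CPM for Ad-Lib libraries, against 461 CPM for TAN libraries. The part of endothelial transcripts in these levels was not tested. In the largest (525 cells), led by Lrrc4c and Gipr, Ltbp4, Fbln5, Fbln2 and Eln were at 34.6, 9.28, 21.8 and 11.8 CPM and Fbn1 at 54.4 CPM. Without the sub-cluster led by endothelial genes the log2 change of Fbln5 was 0.05 ± 0.24 (edgeR adjusted p = 0.975, against 0.0118 to 0.975 over the alternatives).

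Other genes of the pathway were taken from 3 lists, for elastic fiber assembly and crosslinking (17 genes), latent TGF-beta storage and release (13 genes) and elastin-degrading proteases and their inhibitors (10 genes). In Icam1+ cells 1 of 13 assembly genes tested was called, against 1.76% of all genes, namely Fbln7, which encodes fibulin-7 and was also the leading gene of the cluster that makes up this class. It fell from 105 ± 12.8 to 68.1 ± 2.30 CPM (SD, n = 4), a log2 change of −0.65 ± 0.09 (edgeR adjusted p = 0.00082), called under all 15 alternatives. Every TAN library was below every Ad-Lib library, as for 3.29% of the genes tested in the class. The summed APC markers of the class were 35621 to 41783 CPM in Ad-Lib against 31633 to 37501 CPM in TAN and its own Icam1+ markers 6172 to 7082 CPM against 5421 to 6905 CPM, and their part in the values of this class was not tested. Lox, the lysyl oxidase that crosslinks elastin and collagen, had 333 ± 15.0 and 249.6 ± 34.3 CPM there, a log2 change of −0.44 ± 0.11 that passed the test (edgeR adjusted p = 0.0363, against 0.00215 to 0.273 over the alternatives) below 1.5-fold, where 3.27% of genes passed at any fold. In F3+ cells Lox had 261 ± 85.8 and 149 ± 30.7 CPM, a log2 change of −0.85 ± 0.20 (edgeR adjusted p = 0.0710), which DESeq2 called (adjusted p = 0.00794) and which was also called without Ad-Lib 5 (−0.99) and without the filter on low counts. With marker gates it was −0.36 (edgeR adjusted p = 0.750), and in the other 11 alternatives it did not pass.

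Of the TGF-beta list, 1 of 10 genes tested was called in Icam1+ cells, against 1.76% of all genes there. Thbs1, whose product thrombospondin-1 can release latent TGF-beta, fell from 28.2 ± 8.22 to 11.8 ± 6.93 CPM, a log2 change of −1.19 ± 0.28 (edgeR adjusted p = 0.0327). This call was lost with DESeq2 (adjusted p = 0.137) and when Ad-Lib 3, Ad-Lib 7, TAN 2 or TAN 4 was left out (adjusted p up to 0.122), and the change reached −2.08 with marker gates. In Dpp4+ cells, where no test is given, the ligand gene Tgfb2 had 148 ± 34.4 and 87.5 ± 18.6 CPM (log2 change −0.76 ± 0.13, and −0.85 to −0.65 over the alternatives). Every TAN library was below every Ad-Lib library, as for 2.31% of the genes tested in that class. In endothelial-like cells Tgfb2 lay the other way, at 10.1 ± 2.92 and 19.8 ± 8.86 CPM, a log2 change of 0.96 ± 0.27 that missed the threshold (edgeR adjusted p = 0.0532). It was called by 3 of 16 alternatives, DESeq2 (adjusted p = 0.0130), edgeR without TAN 4 (adjusted p = 0.0179) and edgeR without the filter on low counts (adjusted p = 0.00059), and the adjusted p of the others reached 0.232. The list's median log2 change was −0.06 in Dpp4+, −0.11 in Icam1+, −0.14 in F3+, 0.01 in endothelial-like and −0.09 in mural-like cells, where the median of all genes tested lay between −0.01 and 0.01. Of the protease list, 0 of 7, 0 of 7, 0 of 6 and 0 of 5 genes tested were called by edgeR or DESeq2 in the Icam1+, F3+, endothelial-like and mural-like classes, where 1.76%, 0.481%, 2.29% and 0.776% of all genes were called by edgeR (Timp2, Mmp2, Mmp14 and Timp3 passed an unadjusted p under 0.05 in 1 class each). Its medians over the 5 classes lay between −0.23 and −0.01. Against the same shares, none of the assembly genes was called by edgeR in F3+ (0 of 12), endothelial-like (0 of 5) or mural-like cells (0 of 10). At an unadjusted p under 0.05 these were Emilin2, Lox and Loxl2 in F3+, Emilin1 and Furin in endothelial-like and Loxl2 and Thsd4 in mural-like cells, and DESeq2 called Lox in F3+ cells alone. Likewise 0 of 10, 0 of 10 and 0 of 9 genes of the TGF-beta list were called in these classes, with Tgfb2 and Tgfb3, then Ltbp1 and Tgfb2, then none at an unadjusted p under 0.05, and DESeq2 called Tgfb2 in endothelial-like cells alone. The assembly list had medians of −0.12, 0.02, −0.23, 0.27 and 0.07.

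The genes whose levels were most like those of Fbn1 over the 40 sums of 5 classes by 8 libraries were Timp2 (Pearson's r = 0.988), Ecm1 (0.985), Fstl1 (0.983), Bmp1 (0.979) and Zfp385a (0.976), among 7579 genes tested in every class. These points share libraries and classes and the correlations are a description. Timp2, an inhibitor of metalloproteinases, had 3325 CPM in Dpp4+, 1567 CPM in Icam1+, 1980 CPM in F3+, 30.8 CPM in endothelial-like and 115 CPM in mural-like cells. Bmp1, a proteinase that processes procollagen and prolysyl oxidase, had 264, 120, 146, 17.7 and 30.4 CPM in the same order. Among the members, r with Fbn1 was 0.763 for Eln, 0.642 for Fbln2, −0.461 for Fbln5 and −0.687 for Ltbp4. Mfap5, Efemp1, Fbln1, Mfap4 and Fbn2 were not tested in all 5 classes, so no r was taken for them. Genes too low in any of the classes could likewise not be among the most alike.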

How the data were processed

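The files hold UMI counts per gene and cell barcode from 10x Genomics 3′ v3 libraries. Per the labels, the authors made these deposited counts with Cell Ranger 3.0.2 on mm10 (GRCm38) and worked on them in Seurat, while the matrix headers name another Cell Ranger version, so the version is uncertain. No barcode in the files has fewer than 500 UMIs. Cells with 700 to 30000 UMIs, 200 to 8000 genes and at most 10% mitochondrial UMIs were kept, and doublets were kept in the main analysis and removed in an alternative.

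Cells were clustered in scanpy 1.11.5 (2000 variable genes without the 10 members, 30 components, 20 neighbors, Leiden resolution 1, and 0.2 within mural-like cells) and classes were called by fixed markers, so class names were rebuilt and may differ from the study's. The raw counts of a class were added up within each library, and TAN was compared with Ad-Lib over all genes by edgeR 4.0.16 (quasi-likelihood test, TMM, low-count filter; R 4.3.3) with Benjamini-Hochberg adjustment. A gene was called at an adjusted p under 0.05 and at least 1.5-fold, after the study, which tested cells and also required a shared direction between pairs of mice. DESeq2 1.42.0 was an alternative. The tests were tested on simulated counts with known changes.

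The members and lists were chosen with earlier results of these data known. The text names all 10 members in every class, list genes called in a class (up to 4 per list and class) and the 5 genes most correlated with Fbn1. Lox, the endothelial Tgfb2 values, the list genes named only at an unadjusted p and the clusters examined apart were chosen after their values were seen. Positions are from GENCODE M21, and promoters from RefSeq. The promoters of 4 members were not analysed here.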

Additional observations from a re-analysis of the deposited data

Results flagged for a closer look

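Fbln5 in endothelial-like cells of library TAN 6 was at 167 CPM (166.98), while the other 3 TAN libraries lay between 101.8 and 112.5 CPM. The gap to the nearest library made up more of the group's range than Dixon's 95% value for 4 samples allows. In all, 70 groups of 4 libraries were checked and 1 was marked in this way, where chance marks about 1 in 20 groups.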

How the results depend on the processing

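Among the log2 changes refitted under each alternative, 792 kept their direction and their side of the threshold, 69 reversed, 20 passed the threshold newly and 16 no longer passed it. The log2 change of Fbn1 in Dpp4+ cells ran from −0.95 to −0.67 over the alternatives, single clusters included. The set was chosen on this change, so nothing is read from its direction. The causes of the shifts below were not tested. Without the filter on low counts, more genes were tested, and 139 genes were called in Dpp4+, 321 in Icam1+, 217 in F3+, 404 in endothelial-like and 162 in mural-like cells, 1 member (Mfap4) was called in F3+ cells, 4 members (Fbn1, Eln, Mfap5 and Ltbp4) differed in change between Icam1+ and F3+ cells, and Fbln2 in F3+ cells was at −0.0195. With marker gates in place of clusters, 41 genes were called in Dpp4+, 76 in Icam1+ and 10 in F3+ cells, and the log2 changes that turned were Eln (−0.0140) and Fbln5 (−0.0132) in Dpp4+, Ltbp4 (−0.22) and Efemp1 (−0.21) in Icam1+, Fbln2 (−0.0182) in F3+, and Fbn1 (0.0078) and Eln (−0.12) in mural-like cells. With the members among the variable genes, 120 genes were called in F3+ cells, and Eln (0.0034) and Efemp1 (−0.11) in Icam1+ and Efemp1 (−0.0388) and Fbln1 (−0.16) in F3+ cells turned. A mitochondrial limit of 20% gave 101 genes called in F3+ cells, with Fbln5 in Dpp4+ at −0.0161, Eln in Icam1+ at 0.0014, and Efemp1 and Fbln1 in F3+ at −0.13 and −0.22. With doublets removed, Fbln1 in F3+ cells was at −0.13.

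Clusters alone were chosen after seeing the data. The smaller Dpp4+ cluster had 9 genes called, with Eln at −0.0418 and Fbln2 at −0.24, and the larger had Fbln5 at −0.0040. The Gja5 and Hey1 endothelial cluster had 133 genes called, with Eln at −0.50 and Fbln5 at −0.0586, the Plvap and Selp cluster 3 genes, with Ltbp4 at −0.0629 and Fbln5 at −0.0800, and the Aqp1 cluster 2 members past both thresholds (Fbln2, and Fbn1, which passed the low-count filter only through Ad-Lib libraries), with Ltbp4 at −0.0906 and Fbln5 at −0.10.

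When 1 library was left out at a time, 15 to 108 genes were called in Dpp4+, 118 to 218 in Icam1+, 9 to 63 in F3+, 156 to 275 in endothelial-like and 39 to 109 in mural-like cells. In Dpp4+ cells, whose contrast chose the set, 1 to 2 members lay past both thresholds (2 without Ad-Lib 5), and nothing is read from that count. Between 0 and 1 members were called in F3+ cells (Mfap4, without TAN 8) and 0 to 1 in endothelial-like cells (Fbln2, without TAN 8), and 0 to 1 differed between Icam1+ and F3+ cells. The log2 changes that crossed 0 ran from −0.0851 to 0.15 (Eln), −0.0492 to 0.11 (Fbln2) and −0.0454 to 0.0542 (Fbln5) in Dpp4+, from −0.12 to 0.00061 (Eln), −0.21 to 0.21 (Ltbp4) and −0.0157 to 0.18 (Efemp1) in Icam1+, from −0.15 to 0.15 (Fbln2) and −0.0265 to 0.22 (Efemp1) in F3+, and from −0.0554 to 0.20 (Ltbp4) in endothelial-like cells. In the Aqp1 cluster they were −0.0170 to 0.24 (Eln), −0.22 to 0.0559 (Ltbp4) and −0.35 to 0.17 (Fbln5), in the Gja5 and Hey1 cluster −0.15 to 0.15 (Ltbp4) and −0.31 to 0.19 (Fbln5), and for Icam1+ minus F3+ −0.11 to 0.15 (Efemp1) and −0.19 to 0.45 (Mfap4). No paired analysis was possible because the groups share no replicate numbers.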
